A study of Mus musculus with 12 samples.

Results

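The 88 cytosolic ribosomal protein genes of the mouse were followed through skin of 2 Foxp3 genotypes, irradiated and untreated. Genes were chosen by symbol: Rpl or Rps followed by a digit, or Rpsa, Rplp0, Rplp1 or Rplp2, without the Rps6k kinases and without symbols that mark processed pseudogenes (-ps). A total of at least 100 counts over the 12 libraries was also required. Of 53465 gene identifiers in the files, 93 had such a symbol and 88 reached the minimum, 53 of the large subunit (Rpl) and 35 of the small subunit (Rps). The 5 that did not were Rps3a2 with 78 counts, Rpl24 with 63, Rps3a3 with 35, and Rpl10l and Rps12l1 with 0. The member with the fewest counts was Rpl39l, with 112. The annotation marks 4 members, Rpl32l, Rpl6l, Rpl37rt and Rps4l, as pseudogenes. In addition, 2 members, Rps19bp1 and Rpl7l1, share the naming but are not counted among the proteins of the mature cytosolic ribosome. Subunit was read from the symbol alone, so all these members are counted with a subunit below.

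Bulk RNA was sequenced from 12 skin samples, 3 in each of 4 groups: irradiated DE2, irradiated WT, untreated DE2 and untreated WT. WT mice carry the usual Foxp3, the transcription factor of regulatory T cells, and DE2 mice carry a form that the series title writes as Foxp3dExon2, the protocol as Foxp3-DE2 and the sample labels as Foxp3-E2. Irradiated skin had received 6 doses of ultraviolet B light (UVB), given as 200 mJ/cm2 in the sample labels and 100 mJ/cm2 in the protocol, on a shaved patch of the back flank; untreated skin came from another site, for which shaving is not stated. Age, sex and strain are not given either. Neither animals nor batches are named in the labels, and the p-values therefore rest on the spread between libraries, of which some may come from 1 animal. Replicate numbers below only name libraries within a group.

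Each ribosome is built from a large (60S) and a small (40S) subunit, and nearly every ribosomal protein is present in 1 copy per ribosome, so cells make these proteins in matched amounts. Most of their mRNAs begin with a stretch of pyrimidines, the 5′ terminal oligopyrimidine (TOP) motif, through which the kinase complex mTORC1 and the RNA-binding protein LARP1 control their translation and stability together. In skin, demand for ribosomes is high in dividing cells of the epidermis and of the growing hair follicle. A few members have close paralogs with their own tissue pattern, of which Rpl3l, a form of Rpl3 found in striated muscle, is the best known.

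The sequence around the annotated start was read for the 66 members with an entry in the RefSeq promoter table (build GRCm38.p6). An unbroken run of at least 7 C or T bases on the gene's own strand, counted only within 10 bases on either side of the start, was found in 29 of the 66 members (43.9%) and in 14.2% of all 27025 genes of the table. Counted over their whole length, runs that reach into these bases had 7 or more in 35 members (53.0%) and in 22.5% of all genes, a count added after the windows were seen. Where a gene had several entries, the longest run was taken. The windows below hold 15 bases on either side of the start, and capitals mark the longest run that reaches into the inner 10 bases, as far as the window shows it. They show 5 members that passed the test between the untreated genotypes, each with such a run, and then, for comparison, the usual reference genes Rplp0 and Rpl4 and the paralogs Rps27l and Rpl3l. These 5 do not stand for all members that were lower in untreated DE2. Of those with an entry, 13 had a run of at least 7 bases within 10 bases of the start and 9 had none.
Rpl7a, chr2:26910792-26910821, plus strand: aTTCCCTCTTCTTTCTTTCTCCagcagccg
Rpl38, chr11:114668565-114668594, plus strand: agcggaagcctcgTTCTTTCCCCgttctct
Rpl22l1, chr3:28805493-28805522, plus strand: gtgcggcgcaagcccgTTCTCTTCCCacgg
Rps10, chr17:27635230-27635259, minus strand: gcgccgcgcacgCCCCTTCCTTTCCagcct
Rps6, chr4:86857353-86857382, minus strand: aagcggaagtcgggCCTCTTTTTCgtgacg
Rplp0, chr5:115559452-115559481, plus strand: gTCTTCgggtttcgaggaccgcctggttct
Rpl4, chr9:64173372-64173401, plus strand: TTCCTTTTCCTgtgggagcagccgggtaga
Rps27l, chr9:66946071-66946100, plus strand: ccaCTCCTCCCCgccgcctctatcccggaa
Rpl3l, chr17:24727811-24727840, plus strand: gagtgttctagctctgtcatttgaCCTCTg
Over their whole length these runs had 21 bases in Rpl7a, 14 in Rpl4, where the run begins before the window, 13 in Rps10, 10 in Rpl38, Rps6 and Rpl22l1, 9 in Rps27l and 5 in Rplp0 and Rpl3l. A run of these letters is a description of the window and does not show that an mRNA starts there.

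Libraries held 2809142 to 4741726 counts. Epidermal markers, the check on the tissue label, were all detected (14 of 14) and took 0.934% to 3.04% of counts over the 12 libraries. The libraries differed in other tissue components. Striated muscle markers (23 of 23 detected) took 3.55% to 4.34% of counts in irradiated DE2, 2.01% to 8.15% in irradiated WT, 8.72% to 15.3% in untreated DE2 and 4.30% to 5.34% in untreated WT libraries. Not every hair follicle marker listed had a matching symbol in the annotation. The 24 that matched were all detected and took 1.22% to 2.17% in irradiated DE2, 3.21% to 4.63% in irradiated WT, 0.0176% to 0.0932% in untreated DE2 and 1.96% to 3.49% in untreated WT. Genes of dividing cells (26 of 26 detected) took 0.156% to 0.214% in irradiated DE2, 0.122% to 0.274% in irradiated WT, 0.0333% to 0.0575% in untreated DE2 and 0.211% to 0.241% in untreated WT. Untreated DE2 thus had the highest muscle share and the lowest hair follicle and dividing-cell shares, with no overlap with any other group in each of the 3. Adipocyte markers (11 of 11 detected) were also highest there, at 0.344% to 0.413% in irradiated DE2, 0.341% to 0.780% in irradiated WT, 0.889% to 1.58% in untreated DE2 and 0.505% to 0.790% in untreated WT. Neutrophil and macrophage markers (16 of 16 detected) stood apart in the irradiated DE2 libraries, at 0.564% to 0.661% there, 0.0589% to 0.112% in irradiated WT, 0.0357% to 0.0815% in untreated DE2 and 0.0280% to 0.0664% in untreated WT. T cell markers (13 of 13 detected) took 0.0102% to 0.0123% in irradiated DE2, 0.0031% to 0.0046% in irradiated WT, 0.0024% to 0.0072% in untreated DE2 and 0.0032% to 0.0055% in untreated WT. In bulk RNA, fewer cells of a type and less RNA per cell cannot be told apart.

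Ribosomal protein genes took a smaller share of the counts in untreated DE2 skin than in the other 3 groups. Members together held 2.41%, 2.40% and 2.82% of all counts in irradiated DE2 libraries, 2.75%, 1.87% and 3.15% in irradiated WT, 1.86%, 1.21% and 1.22% in untreated DE2, and 2.70%, 2.84% and 2.21% in untreated WT libraries. The 3 untreated DE2 libraries were the lowest of the 12, and replicate 1 among them lay just under irradiated WT replicate 2. Group means were 2.54% ± 0.24 in irradiated DE2, 2.59% ± 0.65 in irradiated WT, 1.43% ± 0.37 in untreated DE2 and 2.58% ± 0.33 in untreated WT (SD, n = 3 each). With muscle marker, keratin and keratin-associated genes taken out of the total, the means were 2.86% in irradiated DE2, 2.95% in irradiated WT, 1.66% in untreated DE2 and 2.88% in untreated WT. Both subunits showed it: large subunit genes held 1.36% ± 0.11 of counts in irradiated DE2, 1.39% ± 0.33 in irradiated WT, 0.800% ± 0.195 in untreated DE2 and 1.39% ± 0.16 in untreated WT. Small subunit genes held 1.18% ± 0.12 in irradiated DE2, 1.20% ± 0.32 in irradiated WT, 0.633% ± 0.177 in untreated DE2 and 1.19% ± 0.17 in untreated WT libraries. The group mean was lowest in untreated DE2 for 86 of the 88 members, against 35.8% of all 15126 genes tested. The exceptions were Rpl3l and Rps27l, both lowest in irradiated DE2.

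**Figure D1:**
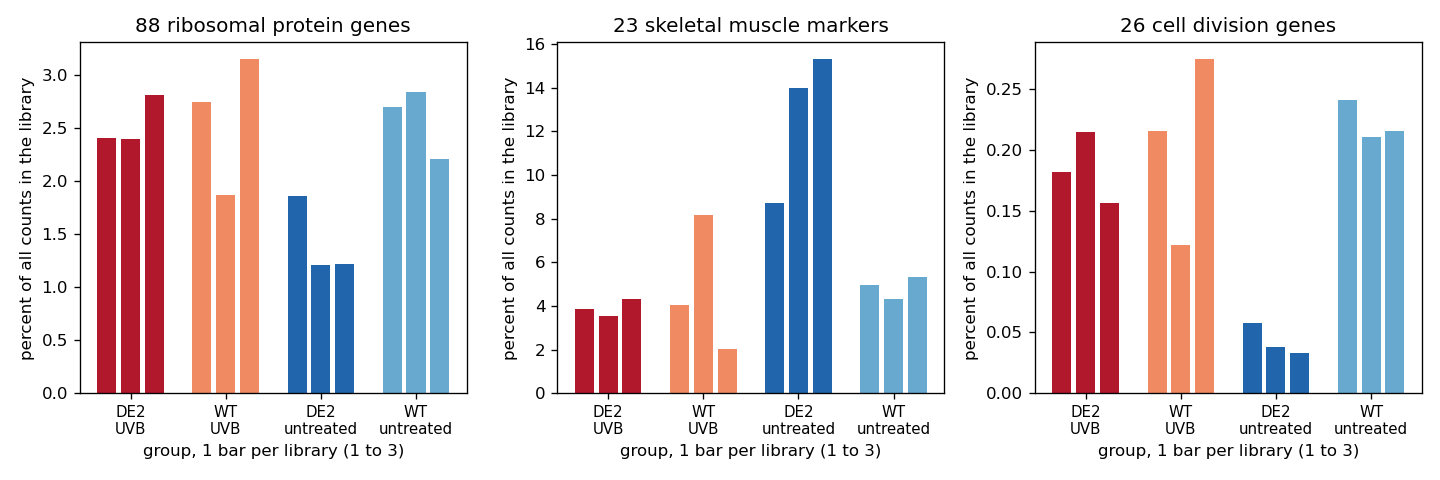
Percent of all counts in each library (vertical axes, from 0) held by the 88 ribosomal protein genes, by the 23 muscle markers and by the 26 genes of dividing cells. Each bar is 1 library, grouped as irradiated DE2, irradiated WT, untreated DE2 and untreated WT; the untreated DE2 bars stand at 1.21% to 1.86% for ribosomal protein genes, below the other 9, and at 8.72% to 15.3% for muscle.

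**Figure D2:**
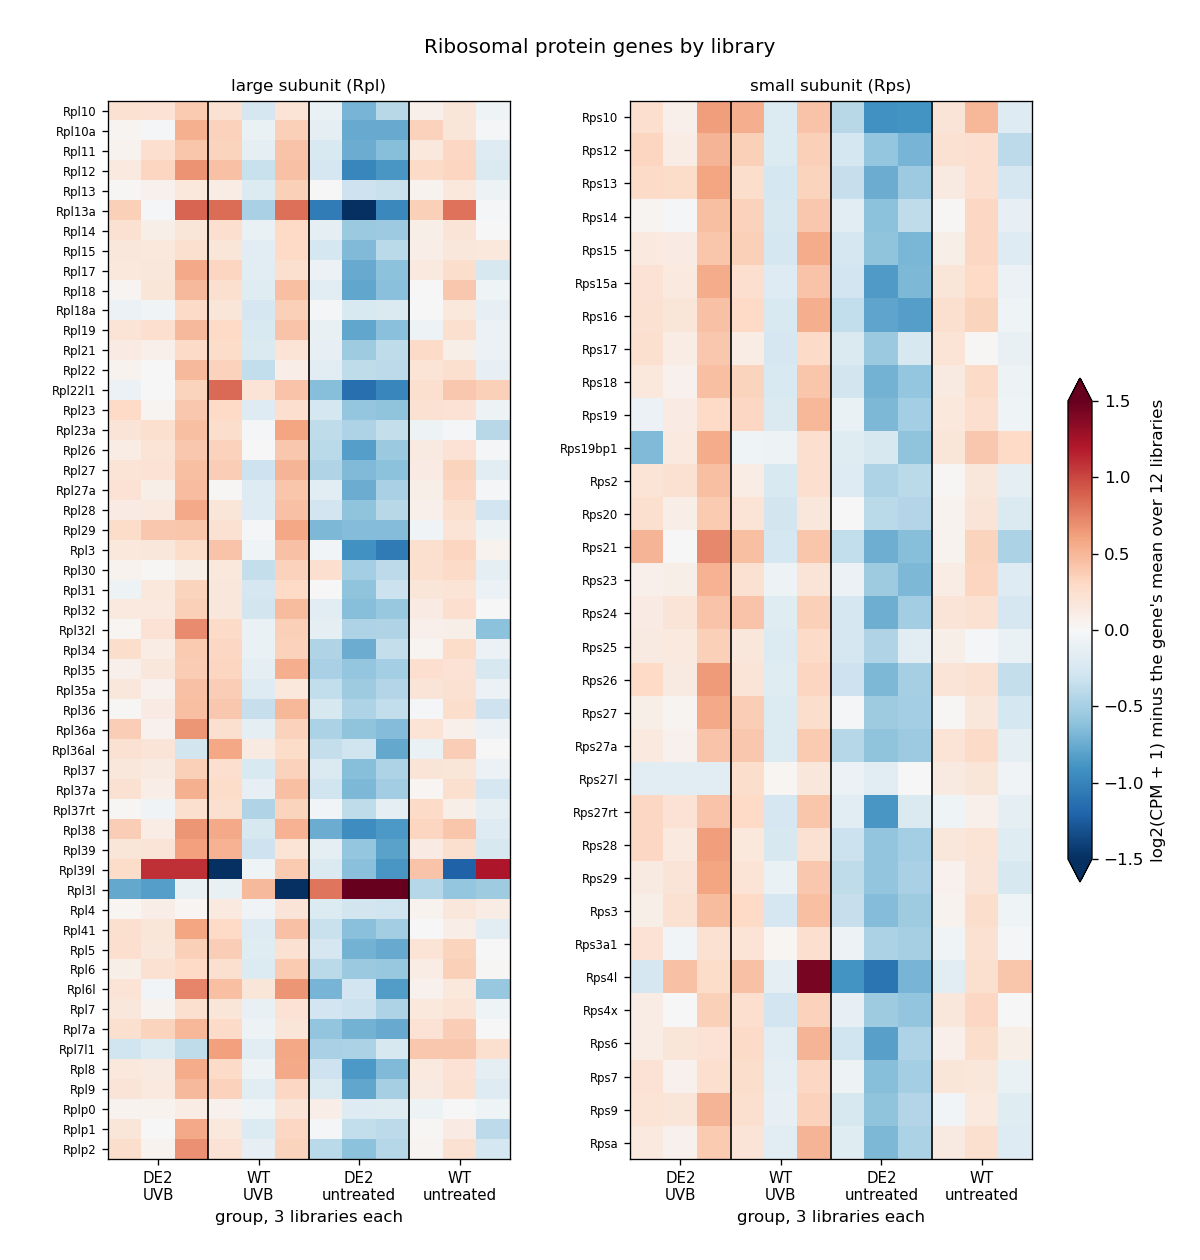
Level of members in each of the 12 libraries as the log2 difference from its own mean over libraries (colour scale), members in rows and libraries in columns by group. The untreated DE2 columns are low for nearly every row, with a median over all 88 members of -0.25, -0.62 and -0.52, and the Rpl3l row runs the other way.

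In untreated skin, many ribosomal protein genes of both subunits were lower in DE2 than in WT. By the quasi-likelihood test of edgeR, with p-values adjusted over 15126 genes by Benjamini and Hochberg, 29 of 88 members fell and 1, Rpl3l, rose, while 11.2% of all genes fell and 11.8% rose. The median log2 fold change of the members was -0.56, against 0.03 for all genes. Below 0 were 87 of 88 members and 48.4% of all genes. By symbol, 20 of the 29 that fell were large subunit members, Rpl7l1 among them, and 9 small subunit members, Rps4l among them. In 63 members all 3 DE2 libraries lay below all 3 WT libraries, which held for 20.4% of all genes.

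Rpl7a, a large subunit protein, had the smallest p. It (ENSMUSG00000062647, chromosome 2, 26910764 to 26913318, plus strand, GRCm38) had 164, 151 and 147 CPM (counts set to the same library size by the TMM factors of edgeR) in untreated DE2 and 289, 320 and 249 CPM in untreated WT libraries. It fell by 0.89 ± 0.17 on the log2 scale (SE, edgeR adjusted p = 0.0023), and the groups did not overlap. Rpl38 (ENSMUSG00000057322, chromosome 11, 114668524 to 114672331, plus strand), a large subunit protein needed in mouse embryos for the translation of Hox mRNAs, had 116, 102 and 107 CPM in untreated DE2 and 244, 260 and 170 CPM in untreated WT. Its log2 fold change was -1.05 ± 0.24 (edgeR adjusted p = 0.0058), again with no overlap. Rps10, a small subunit protein at the head of the 40S particle, had 127, 90.3 and 90.9 CPM in untreated DE2 and 194, 241 and 148 CPM in untreated WT, and fell by 0.92 ± 0.25 (edgeR adjusted p = 0.0151).

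The largest falls were in members of low level. Rpl13a, the large subunit protein that in human monocytes also leaves the ribosome to silence inflammatory mRNAs, had 7.80, 5.38 and 8.34 CPM in untreated DE2 and 22.4, 31.0 and 17.1 CPM in untreated WT, a log2 fold change of -1.71 ± 0.42 (edgeR adjusted p = 0.0099). Its counts were few, 81 in untreated DE2 and 318 in untreated WT over 3 libraries each, and Rpl13a has many near-identical copies, so its value is uncertain. Rpl22l1, a paralog of Rpl22, had 11.9, 8.21 and 9.17 CPM in untreated DE2 and 22.9, 25.6 and 24.8 CPM in untreated WT, a log2 fold change of -1.32 ± 0.30 (edgeR adjusted p = 0.0066). Rps4l, annotated as a pseudogene and a near copy of Rps4x, fell by 1.12 ± 0.36, and Rps16 and Rpl12 fell by 0.83 ± 0.22 and 0.82 ± 0.26. Among the other 21 members that fell were Rpl3, Rpl7l1, Rpl5, Rpl26, Rpl29, Rpl27, Rpl6, Rps6, Rpl36a, Rps18, Rpl11, Rpl23, Rpl8, Rpl10a, Rpl15, Rpl34, Rpl35a, Rps15a and Rps27a.

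The number of members past the threshold rested on single libraries. It was 4 without untreated DE2 replicate 2, 7 without untreated DE2 replicate 3, 10 without untreated WT replicate 2, 17 without untreated WT replicate 1, 44 without irradiated WT replicate 3 and 51 without untreated DE2 replicate 1, while the median log2 fold change stayed between -0.73 and -0.44 over all 12 such fits. With library totals in place of TMM factors, which moved the median of all genes by -0.37, 72 members fell, with a median of -0.95. With the muscle marker level or the hair follicle marker level as a covariate no member passed in either direction, and the median log2 fold change was -0.11 and 0.53. Both marker levels differ between the groups with no overlap, and their part in the fall was not tested.

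In DE2 skin, most of the family was higher with UVB than without. Of 88 members, 60 rose and 1, Rpl3l, fell, while 14.4% of all genes rose and 13.4% fell. Those that rose were 35 of 53 large subunit and 25 of 35 small subunit members, and the median log2 fold change was 0.74, against 0.02 for all genes. All 3 irradiated libraries lay above all 3 untreated ones in 79 members, which held for 22.0% of all genes. This comparison and the one between untreated genotypes share the 3 untreated DE2 libraries, so the low values there enter both.

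Rpl7a had 295, 314 and 352 CPM in irradiated DE2 and 164, 151 and 147 CPM in untreated DE2, a log2 fold change of 1.05 ± 0.17 (edgeR adjusted p = 5.36e-04). Rpl29, a large subunit protein also known as a heparin-binding protein at the cell surface, had 156, 170 and 172 CPM in irradiated DE2 and 79.9, 81.5 and 81.4 CPM in untreated DE2, a log2 fold change of 1.03 ± 0.18 (edgeR adjusted p = 8.89e-04). Rpl38 had 252, 211 and 309 CPM in irradiated DE2 and 116, 102 and 107 CPM in untreated DE2, a log2 fold change of 1.24 ± 0.24 (edgeR adjusted p = 0.0016). In all 3 genes every irradiated library lay above every untreated one, and the irradiated DE2 levels were in the range of untreated or irradiated WT skin or just above it. Rpl13a rose by 1.72 ± 0.43, Rps4l by 1.11 ± 0.36, Rpl12 by 1.07 ± 0.26, Rps10 by 1.07 ± 0.25 and Rpl22l1 by 1.06 ± 0.31. The other 52 members that rose had log2 fold changes between those of Rpl7 (0.51 ± 0.18) and Rps21 (1.02 ± 0.26).

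The 27 members that did not pass in irradiated against untreated DE2 included some of high level. Rps14, Rplp1, Rps19, Rps27, Rps4x and Rplp0 were among them, together with low-level symbols such as Rpl39l, Rpl6l and Rpl36al. The count of members that rose was 23 without untreated DE2 replicate 2, 26 without irradiated DE2 replicate 3 and 32 without untreated DE2 replicate 3. The median log2 fold change was 0.26 with the muscle covariate and -0.30 with the hair follicle covariate, and no member passed with either. Muscle, adipocyte, hair follicle and dividing-cell shares differ between these 2 groups with no overlap. So do the neutrophil and macrophage and the T cell shares given above, and the epidermal share, which was 2.48% to 3.04% in irradiated DE2 and 0.953% to 2.15% in untreated DE2. The part of these shares in the rise was not tested.

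**Figure D3:**
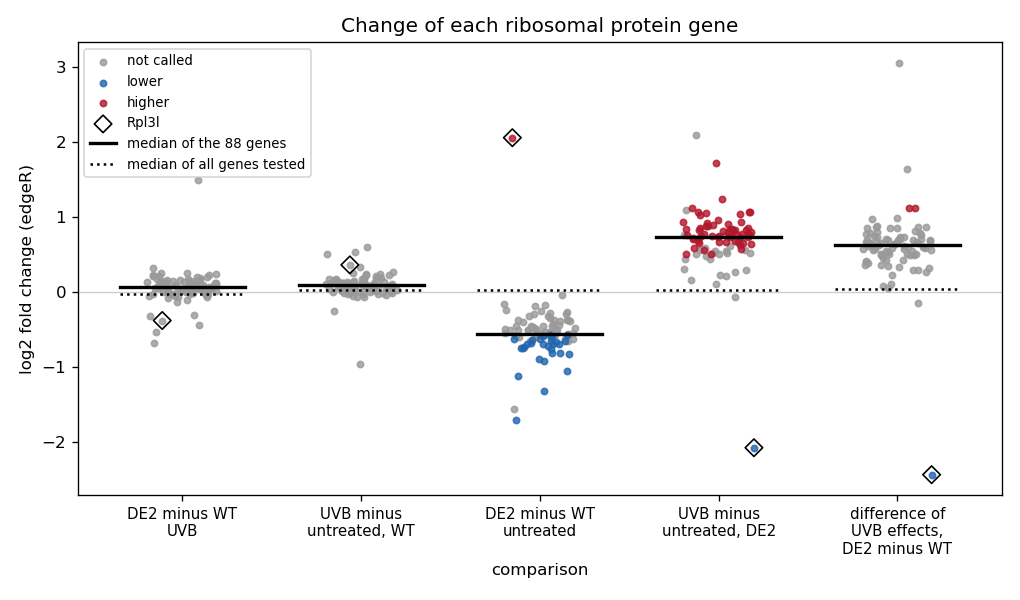
Log2 fold change of each of the 88 genes (vertical axis, edgeR) in the 5 comparisons (horizontal axis), blue where lower and red where higher past the threshold, grey where not; solid lines are medians of the 88 genes, dotted lines those of all genes tested, and diamonds mark Rpl3l. Points gather around -0.56 for untreated DE2 against untreated WT, around 0.74 for UVB in DE2 and near 0 for the genotypes in irradiated skin and for UVB in WT, while Rpl3l lies apart at 2.06 and -2.08.

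In irradiated skin no ribosomal protein gene passed the test between the genotypes, and in WT skin none passed for UVB. Between irradiated DE2 and irradiated WT, 0 of 88 members passed in either direction with edgeR, DESeq2 or limma voom, while edgeR called 2.35% of all genes higher and 0.608% lower. Of all genes, 2.96% were called in either direction, so 0 of 88 does not set the members apart from other genes. The median log2 fold change was 0.06, and 1 member, Rpl7l1, had an unadjusted p under 0.05. Rpl7l1, which encodes a nucleolar protein related to Rpl7 that acts in large subunit assembly, had 76.4, 81.6 and 72.2 CPM in irradiated DE2 and 145, 84.1 and 141 CPM in irradiated WT. All 3 DE2 libraries were below the WT ones, as in 1 other member, Rps27l, and in 9.35% of all genes, with a log2 fold change of -0.68 ± 0.21 (edgeR adjusted p = 0.098), and the adjusted p was 0.018 without irradiated WT replicate 2, the library with the highest muscle share of its group. Rps27l had 207, 207 and 207 CPM in irradiated DE2 and 278, 236 and 259 CPM in irradiated WT (log2 fold change -0.32 ± 0.16, edgeR adjusted p = 0.37). Rps28 and Rps4l had log2 fold changes of 0.31 ± 0.19 and -0.54 ± 0.35 (edgeR adjusted p = 0.51 and 0.53).

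For UVB in WT skin, 0 of 88 members passed with edgeR, DESeq2 or limma voom, while edgeR called 0.0198% of all genes higher and 0.00% lower. With so few genes called, 0 of 88 does not set the members apart there either. In edgeR, 0 members had an unadjusted p under 0.05, against 4.56% of all genes. The median log2 fold change was 0.09. Rpl7a had 304, 235 and 283 CPM in irradiated WT skin and 289, 320 and 249 CPM in untreated WT, and the 2 ranges overlapped. The members of smallest p were Rps4l, Rpl23a, Rpl29 and Rpl6l, with log2 fold changes of 0.54 ± 0.35, 0.50 ± 0.35, 0.25 ± 0.18 and 0.60 ± 0.50 (edgeR adjusted p = 1 for each). In Rpl23a and Rpl6l, 2 of the 88, the irradiated WT libraries all lay above the untreated WT ones and in 0 below, against 4.85% and 5.25% of all genes. In Rpl23a, whose product helps the signal recognition particle dock at the tunnel exit, the mean was 14.7 CPM in irradiated WT skin and 10.4 CPM in untreated WT. In Rpl6l it was 8.20 CPM in irradiated WT skin and 5.39 CPM in untreated WT.

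The interaction term, which tests whether the UVB difference in DE2 departs from that in WT, was positive in 86 of 88 members and in 51.8% of all genes. Its median log2 value was 0.63 in the members, against 0.04 for all genes. Few members passed on their own: 2 were higher, Rpl7a at 1.12 ± 0.24 (edgeR adjusted p = 0.0105) and Rpl38 at 1.12 ± 0.33 (edgeR adjusted p = 0.045), and 1, Rpl3l, was lower at -2.44 ± 0.56 (edgeR adjusted p = 0.0155). Of all genes, 5.64% were higher and 4.84% lower, so the share of members called was not above that of all genes. Without adjustment, 40 members had p under 0.05, as did 26.6% of all genes, and DESeq2 called 8 members and 7.96% of all genes higher. The count of members higher was 1 without any one of irradiated DE2 replicates 1, 2 or 3, irradiated WT replicate 2, untreated DE2 replicates 2 or 3, or untreated WT replicates 1 or 2; it was 11 without irradiated WT replicate 3 and 19 without untreated DE2 replicate 1.

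Rpl3l ran against the family. Its product replaces RPL3, which sits by the peptidyl transferase centre, in ribosomes of heart and skeletal muscle. Rpl3l (ENSMUSG00000002500, chromosome 17, 24727820 to 24736143, plus strand) had 99.0, 95.4 and 157 CPM in irradiated DE2, 158, 239 and 59.6 CPM in irradiated WT libraries, 297, 531 and 652 CPM in untreated DE2, and 126, 113 and 117 CPM in untreated WT. All 3 untreated DE2 libraries were above the other 9. Its log2 fold change was 2.06 ± 0.41 between untreated DE2 and untreated WT (edgeR adjusted p = 0.0029) and -2.08 ± 0.41 for UVB in DE2 (edgeR adjusted p = 0.0022). Rpl3 (ENSMUSG00000060036, chromosome 15, 80077791 to 80091868, minus strand) had 422, 424 and 456 CPM in irradiated DE2, 507, 360 and 512 CPM in irradiated WT libraries, 366, 200 and 180 CPM in untreated DE2, and 447, 472 and 393 CPM in untreated WT, and fell by 0.81 ± 0.25 between untreated DE2 and untreated WT (edgeR adjusted p = 0.029).

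Per base of transcript, the ratio of Rpl3l to Rpl3 was 0.263 ± 0.065 in irradiated DE2, 0.357 ± 0.273 in irradiated WT, 2.32 ± 1.40 in untreated DE2 and 0.268 ± 0.030 in untreated WT (SD, n = 3). In untreated DE2 it ran between 0.797 and 3.55, above every other library. Within irradiated DE2, irradiated WT and untreated DE2 the order of libraries by Rpl3l was that by muscle share, and in untreated WT it was not. In irradiated WT the highest Rpl3l (239 CPM) was in the library with 8.15% muscle counts and the lowest (59.6 CPM) in the library with 2.01%. With the muscle level as a covariate the Rpl3l log2 fold changes were 0.38 (edgeR adjusted p = 0.61) between untreated genotypes and -0.29 (edgeR adjusted p = 0.70) for UVB in DE2. The muscle share of untreated DE2 did not overlap that of any other group, so this fit cannot tell muscle content and group apart. The part of muscle in the Rpl3l values was not tested.

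**Figure D4:**
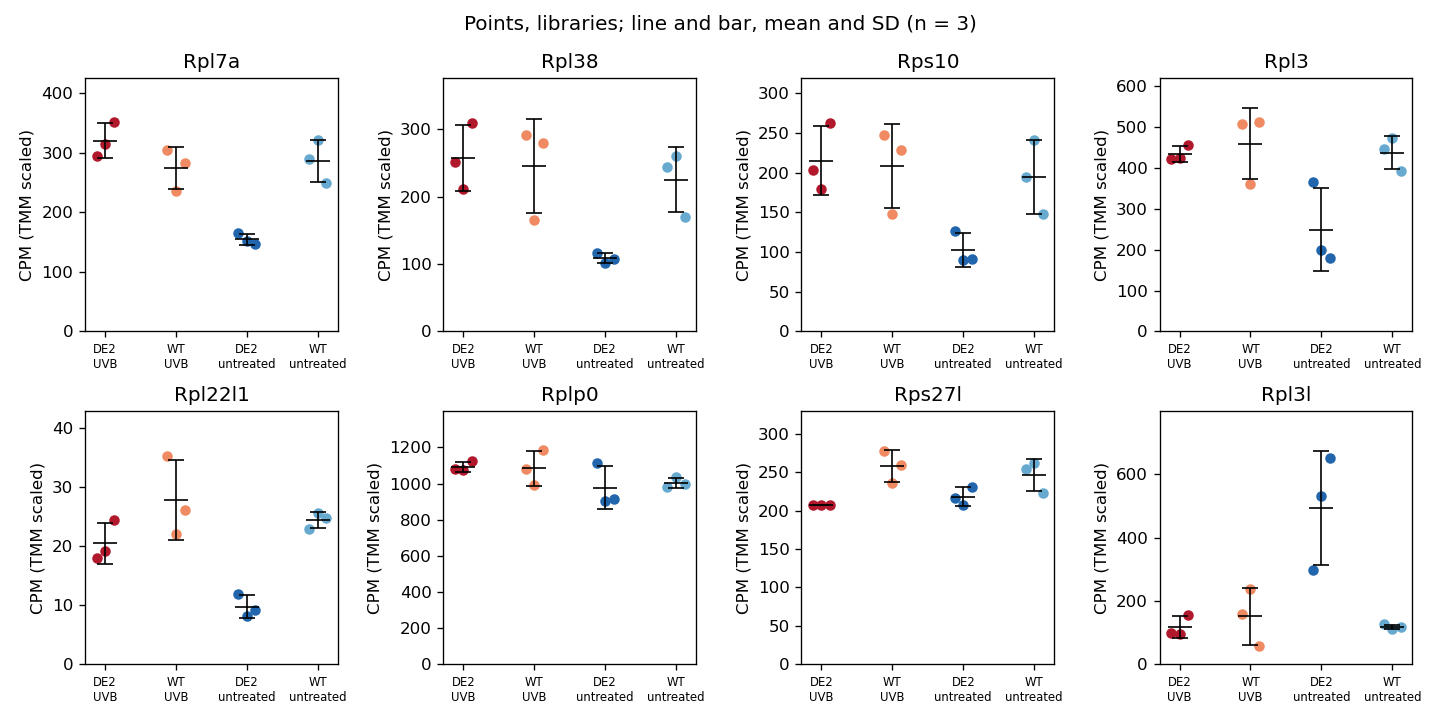
Level in CPM (vertical axes, from 0) of 8 members in the 12 libraries by group, with points for libraries and lines for means ± SD of 3. Rpl7a, Rpl38 and Rpl22l1 are low in untreated DE2, and Rplp0 stays at similar levels in all 4 groups. Rps27l averages 207 CPM in irradiated DE2, 258 in irradiated WT, 218 in untreated DE2 and 246 in untreated WT. Rpl3l has 297 to 652 CPM in untreated DE2, above the other 9 libraries.

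The other paralog pairs were compared by their ratio per base of transcript. Rpl22l1 stood at 0.095 ± 0.005 of Rpl22 in irradiated DE2, 0.142 ± 0.012 in irradiated WT, 0.064 ± 0.007 in untreated DE2 and 0.120 ± 0.020 in untreated WT. Both DE2 groups lay below both WT groups in every library for this ratio, with DE2 ratios of at most 0.101 and WT ratios of at least 0.104. Rps27l, a p53-induced paralog of Rps27, stood at 0.583 ± 0.110 of Rps27 in irradiated DE2, 0.766 ± 0.108 in irradiated WT, 0.924 ± 0.186 in untreated DE2 and 0.817 ± 0.058 in untreated WT libraries. The 3 libraries of untreated DE2 had 217, 207 and 231 CPM of Rps27l and 209, 146 and 148 CPM of Rps27. Rpl7l1 stood at 0.062 ± 0.008 of Rpl7 in irradiated DE2, 0.100 ± 0.017 in irradiated WT, 0.081 ± 0.014 in untreated DE2 and 0.100 ± 0.004 in untreated WT. Rpl36al stood at 0.058 ± 0.021 of Rpl36a in irradiated DE2, 0.081 ± 0.012 in irradiated WT, 0.070 ± 0.013 in untreated DE2 and 0.072 ± 0.016 in untreated WT. Rps4l stood at 0.114 ± 0.034 of Rps4x in irradiated DE2, 0.162 ± 0.065 in irradiated WT, 0.079 ± 0.020 in untreated DE2 and 0.114 ± 0.031 in untreated WT. Rpl39l, a testis form of Rpl39, had few counts, 44 in irradiated DE2, 16 in irradiated WT, 11 in untreated DE2 and 41 in untreated WT, each over 3 libraries. The paralog ratios were not tested.

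To ask which members moved apart from the rest, the same test was run with each library scaled to its summed ribosomal protein counts. Against this family level, 82 to 86 of 88 members stayed within 0.5 on the log2 scale in each of the 5 comparisons. The members themselves set this scale, so their changes centre on it by construction. That count therefore does not show that they move together. Between untreated DE2 and untreated WT 1 member was higher, Rpl3l at 2.55 ± 0.50 (edgeR adjusted p = 0.0040), and 2 were lower, Rpl13a at -1.23 ± 0.36 (edgeR adjusted p = 0.022) and Rpl22l1 at -0.88 ± 0.29 (edgeR adjusted p = 0.039); on this scale 20.1% of all genes were higher and 6.05% lower. For UVB in DE2, Rpl13a at 1.11 ± 0.36 and Rpl38 at 0.63 ± 0.21 were higher, and Rpl3l at -2.74 ± 0.51 and Rps27l at -0.68 ± 0.22 were lower (edgeR adjusted p = 0.029, 0.034, 0.0018 and 0.026), where 6.94% of all genes were higher and 27.3% lower. The interaction left Rpl3l alone, at -3.13 ± 0.69 (edgeR adjusted p = 0.0168, with 8.69% of all genes lower and 3.16% higher). No member passed between irradiated genotypes (0.780% of genes higher, 0.231% lower) or for UVB in WT (0.00% in each direction). These calls were few and moved with single libraries: between untreated genotypes only Rpl3l passed without untreated DE2 replicate 2, untreated WT replicate 1 or untreated WT replicate 2, and for UVB in DE2 1 or 2 members passed without irradiated DE2 replicate 1 or 3 or any one untreated DE2 library. Among fits without 1 library, Rpl22l1 kept its call only without irradiated DE2 replicate 3 or any one irradiated WT library. Each library was also scaled by the median ratio of its members to their means over libraries. On that scale Rpl22l1 no longer passed between untreated genotypes, nor Rpl38 for UVB in DE2. Without untreated WT replicate 2 the interaction left no member.

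Within the family, levels per length spanned a wide range. Per kilobase of transcript and averaged over the 12 libraries, the highest were Rps14 at 1109 CPM, Rpl41 at 898 CPM and Rplp1 at 860 CPM, and the lowest Rpl39l at 2.97 CPM, Rpl6l at 7.06 CPM, Rpl36al at 13.4 CPM and Rpl13a at 19.0 CPM. Rps14, a protein of the small subunit platform, had a log2 fold change that did not pass in any of the 5 comparisons. Fold changes between untreated genotypes were close across transcript lengths: in 4 length classes the medians were -0.47 in the 18 shortest members, -0.57 in the next 19, -0.58 in the next 23 and -0.57 in the 28 longest. Members with a run of C and T bases at the start and members without one had like medians, -0.58 in 29 members, of which 13 fell, and -0.54 in 37 members, of which 9 fell and 1 rose.

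Several members serve as reference genes in PCR work, and these differed in how steady they were. On the TMM scale, Rplp0, the base of the ribosomal stalk, was the steadiest of all 88 members. Its coefficient of variation over the 12 libraries was 8.15%, the lowest, against a median of 24.6%. It had 1078, 1076 and 1123 CPM in irradiated DE2, 1082, 992 and 1185 CPM in irradiated WT libraries, 1114, 904 and 918 CPM in untreated DE2, and 982, 1038 and 996 CPM in untreated WT libraries. The highest library stood 1.31-fold above the lowest, and the log2 fold change between untreated DE2 and untreated WT was -0.04 ± 0.19 (edgeR adjusted p = 0.91). Over 25 alternative fits this Rplp0 fold change ran from -0.43 to 0.75 and did not pass in any. Its coefficient of variation was not measured on other scalings. Rpl4, a large subunit protein lining the peptide tunnel, varied 1.40-fold between 690 and 969 CPM, with its 3 lowest values in untreated DE2. Rpl32 varied 2.16-fold, Rps18 2.25-fold, Rpl27 2.27-fold, Rps29 2.29-fold, Rpl19 2.43-fold and Rpl13a 6.03-fold. Of these, Rps18, Rpl27 and Rpl13a fell in untreated DE2 against untreated WT, and Rpl32, Rps18, Rpl27, Rps29, Rpl19 and Rpl13a rose with UVB in DE2.

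Rpl5, Rpl11 and Rpl23 bind the p53 ubiquitin ligase Mdm2 when ribosome assembly fails. Rpl5 had 193, 182 and 207 CPM in irradiated DE2, 209, 143 and 190 CPM in irradiated WT libraries, 136, 98.5 and 95.3 CPM in untreated DE2, and 186, 204 and 162 CPM in untreated WT. It fell by 0.74 ± 0.20 between untreated DE2 and untreated WT (edgeR adjusted p = 0.0138), and Rpl11 and Rpl23 fell by 0.63 ± 0.21 and 0.60 ± 0.19 (edgeR adjusted p = 0.044 and 0.033). Rps6, the substrate of the S6 kinases, had 129, 89.4 and 114 CPM in untreated DE2 and 167, 191 and 168 CPM in untreated WT, a log2 fold change of -0.66 ± 0.20 (edgeR adjusted p = 0.026). In all 4 genes the untreated DE2 libraries lay below the untreated WT ones. Rps3, which also takes part in NF-κB signalling and DNA repair, Rps19, mutated in human Diamond-Blackfan anaemia, and Rpl10, which joins the large subunit late, had log2 fold changes of -0.60 ± 0.22, -0.53 ± 0.22 and -0.45 ± 0.20 that did not pass (edgeR adjusted p = 0.061, 0.099 and 0.11). With UVB in DE2, Rpl5, Rpl11, Rpl23, Rps6, Rps3 and Rpl10 rose, by 0.66 to 0.82, and Rps19 had 0.52 ± 0.22 (edgeR adjusted p = 0.092).

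Other genes of the ribosome pathway were read from the same fit. Of further ribosome parts, Rack1, a scaffold on the 40S head, fell by 0.75 ± 0.25 in untreated DE2 against untreated WT and rose by 0.76 ± 0.25 with UVB in DE2 (edgeR adjusted p = 0.040 and 0.034). Fau, the precursor of RPS30, had -0.58 ± 0.21 between untreated genotypes (edgeR adjusted p = 0.060) and rose by 1.03 ± 0.21 with UVB in DE2 (edgeR adjusted p = 0.0027). Of 83 ribosome assembly and ribosomal RNA transcription genes, 24 fell and 0 rose between untreated genotypes, with a median log2 fold change of -0.51, while 11.2% of all genes fell and 11.8% rose. For UVB in DE2, 16 rose and 0 fell, with a median of 0.26, while 14.4% of all genes rose and 13.4% fell. Genes of dividing cells, whose part was not tested, took 0.043% ± 0.013 of counts in untreated DE2 and 0.222% ± 0.016 in untreated WT, beside hair follicle shares of 0.045% ± 0.042 in untreated DE2 and 2.80% ± 0.77 in untreated WT.

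Nop58, a core protein of the box C/D particles that methylate ribosomal RNA, averaged 34.6 ± 1.9 CPM in untreated DE2 and 111 ± 10 CPM in untreated WT, and fell by 1.67 ± 0.21. Npm1, a nucleolar chaperone, averaged 175 ± 14 CPM in untreated DE2 and 421 ± 59 CPM in untreated WT, and fell by 1.27 ± 0.18. Nhp2 and Gar1, proteins of the box H/ACA particles that make pseudouridine, fell by 1.07 ± 0.20 and 1.30 ± 0.24 (edgeR adjusted p = 5.73e-05, 2.27e-04, 0.0016 and 0.0018 for these 4 genes). With UVB in DE2, Nop58, Npm1 and Nhp2 rose by 1.36 ± 0.21, 1.17 ± 0.18 and 1.15 ± 0.20, as did Taf1d, a subunit of the RNA polymerase I factor SL1, by 1.05 ± 0.21 (edgeR adjusted p = 3.13e-04, 3.53e-04, 7.26e-04 and 0.0024).

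Translation factors moved in both directions. Of 40, 9 fell and 3 rose between untreated genotypes (median -0.17), and 10 rose and 4 fell with UVB in DE2 (median 0.29). Of all genes, 11.2% fell and 11.8% rose between untreated genotypes, and 14.4% rose and 13.4% fell with UVB in DE2. Pabpc1, the poly(A)-binding protein, whose mRNA is itself a TOP mRNA, fell by 1.23 ± 0.23 in untreated DE2 against untreated WT and rose by 1.28 ± 0.23 with UVB in DE2. Eif3d, a subunit of the initiation factor eIF3, fell by 1.005 ± 0.227 between untreated genotypes, and Eif1, which guards start codon choice, rose by 1.05 ± 0.23. Eef1a2, the muscle and nerve form of elongation factor 1A, averaged 27.6 ± 11.6 CPM in untreated DE2 and 5.40 ± 0.42 CPM in untreated WT and rose by 2.34 ± 0.51 (edgeR adjusted p = 0.0017, 0.0057, 0.0051 and 0.0045 for Pabpc1, Eif3d, Eif1 and Eef1a2 between untreated genotypes). The muscle marker share, highest in the same libraries, was 12.7% ± 3.5 in untreated DE2 libraries and 4.88% ± 0.53 in untreated WT. With UVB in DE2, Eif6 and Eif4a1 rose by 0.93 ± 0.18 and 0.90 ± 0.19 and Eif4a2 fell by 1.15 ± 0.25.

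Genes that control ribosomal protein mRNAs gave 5 lower and 6 higher of 26 tested between untreated genotypes (median -0.12), and 3 higher and 5 lower with UVB in DE2 (median 0.09). The shares over all genes were 11.2% lower and 11.8% higher between untreated genotypes, and 14.4% higher and 13.4% lower with UVB in DE2. Mycn, a Myc family transcription factor, averaged 1.14 ± 1.01 CPM in untreated DE2 and 77.2 ± 4.5 CPM in untreated WT, a log2 fold change of -6.03 ± 0.56 (edgeR adjusted p = 3.83e-06), beside the hair follicle shares given above. It rose with UVB in DE2, by 4.34 ± 0.56. Pdcd4, an inhibitor of eIF4A, and Tia1, which binds TOP mRNAs, fell by 1.25 ± 0.23 and 0.77 ± 0.18 between untreated genotypes, and Rheb, the activator of mTORC1, rose by 0.75 ± 0.18 (edgeR adjusted p = 0.0017, 0.0070 and 0.0073). With UVB in DE2, Mxd1, a Myc antagonist, rose by 1.87 ± 0.25, and Rheb and Cnbp fell by 0.95 ± 0.18 and 0.83 ± 0.23. Between irradiated genotypes, Mxd1 rose by 1.49 ± 0.25 (edgeR adjusted p = 0.0049), and among the translation factors Eif6, which keeps the subunits apart, rose by 0.78 ± 0.18 (edgeR adjusted p = 0.029); no other gene of the 5 lists passed there, and none passed for UVB in WT.

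Mitochondrial ribosomal protein genes, a separate set that serves translation inside mitochondria, gave other values than the cytosolic set. Of 77 tested, 16 rose and 2 fell in untreated DE2 against untreated WT, with a median log2 fold change of 0.32, while 11.8% of all genes rose and 11.2% fell. With UVB in DE2, 1 rose and 17 fell, with a median of -0.40, while 14.4% of all genes rose and 13.4% fell. Between untreated genotypes, the other scaling factors run gave 13 to 15 higher and 2 lower, with medians between 0.25 and 0.32. Only library totals, without such factors, changed the direction: 1 rose and 4 fell, with a median of -0.11, above the -0.37 of all genes. For UVB in DE2, library totals gave 3 higher and 5 lower, with a median of -0.14 against 0.26 for all genes. The muscle share, whose part was not tested, was 3.91% ± 0.40 in irradiated DE2, 12.7% ± 3.5 in untreated DE2 and 4.88% ± 0.53 in untreated WT. Mrpl42 and Mrpl37 rose by 1.21 ± 0.27 and 0.92 ± 0.22 between untreated genotypes (edgeR adjusted p = 0.0050 and 0.0070) and fell by 1.12 ± 0.27 and 0.82 ± 0.22 with UVB in DE2 (edgeR adjusted p = 0.0059 and 0.0106). Shares of all counts were taken over a wider set of 83 mitochondrial ribosomal protein symbols, from which those marked -ps were not removed. This set held 0.493% ± 0.019 in irradiated DE2, 0.539% ± 0.024 in irradiated WT, 0.540% ± 0.041 in untreated DE2 and 0.557% ± 0.021 in untreated WT.

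**Figure D5:**
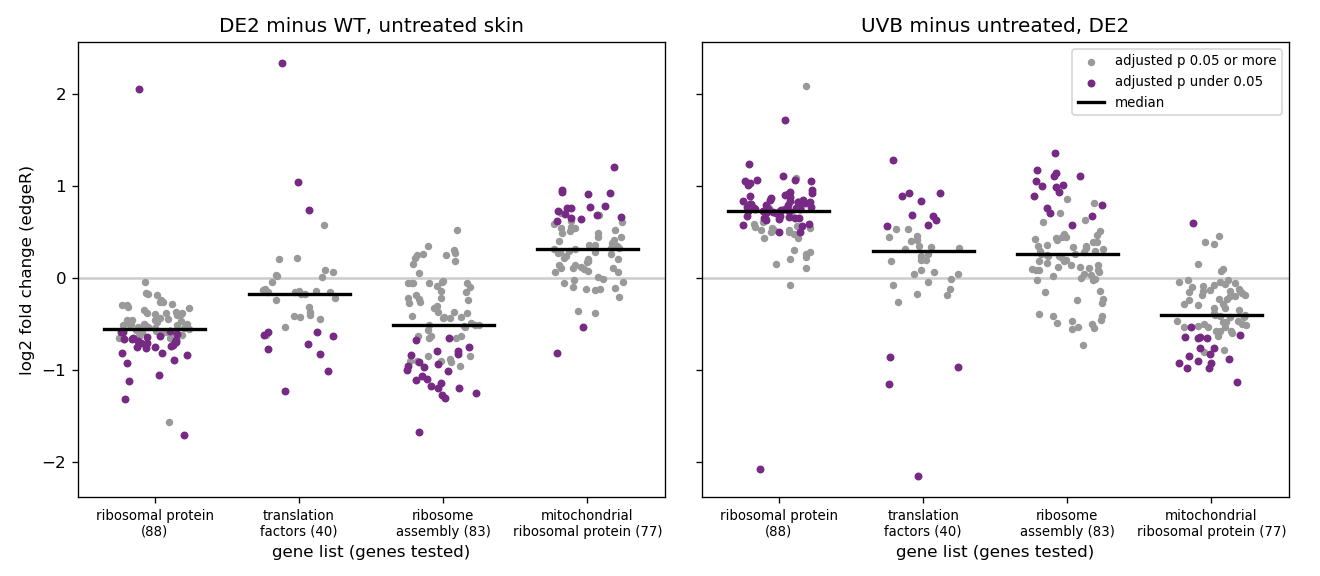
Log2 fold change of each gene (vertical axes, edgeR) in 4 gene lists, for untreated DE2 against untreated WT and for UVB in DE2; purple points passed the threshold, grey points did not, and lines are list medians. The cytosolic ribosomal protein genes and the assembly genes have medians of -0.56 and -0.51 in the first panel, and the mitochondrial set has 0.32. With library totals the mitochondrial median is -0.11, against -0.37 for all genes.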

How the data were processed

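The deposited files held raw read counts per Ensembl gene, not normalized. Per the submitters' processing notes, the authors used Trimmomatic 0.39, Picard 3.1.0, SAMtools 1.16 and HTSeq 2.0.2 with build GRCm38; the aligner, annotation release, strand setting and treatment of duplicates are not stated in them. Symbols and positions came from GENCODE vM21 (GRCm38), which named 53360 of 53465 identifiers. Ribosomal protein genes have many near-identical processed copies: 295 symbols marked -ps held 16718 counts, 1.61% of the 1035255 counts of the members, and how the counting treated reads that match several copies could shift single members, most of all low ones such as Rpl24, Rpl13a and Rpl23a. Without the strand setting, overlapping genes on opposite strands cannot be told apart.

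The tests ran in edgeR 4.0.16 under R 4.3.3 (low counts removed by filterByExpr, TMM scaling, 1 mean per group over all 12 libraries, 8 residual degrees of freedom, robust quasi-likelihood test) and tested on simulated data. All 15126 genes kept, among them all 88 members, entered each of 5 comparisons, with Benjamini-Hochberg adjustment and a threshold of 0.05. A pseudocount of 1 was used only for log2 CPM per library. Standard errors were worked back from the test statistic. The second fit replaced library sizes with the summed member counts. Levels and ratios per length used 1 transcript per gene, the principal one in GENCODE. Alternatives were other scalings and filters, DESeq2 1.42.0, limma 3.58.1 (voom), marker covariates and leaving out libraries. Named in the text are up to 8 members per direction with the largest change past the threshold (or the 4 of smallest p), paralogs, usual reference genes, members with further roles, extremes of level, and up to 4 genes of smallest p per related list. Values of some single members and related genes are not reported here. Members and lists were chosen with earlier results of these data known.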

Additional observations from a re-analysis of the deposited data

Results flagged for a closer look

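In 3 members the UVB difference departed between the genotypes by a test of the difference itself, the interaction term of edgeR's quasi-likelihood test with adjustment over all genes. Rpl7a had a log2 interaction of 1.115 (adjusted p = 0.0105): its UVB log2 fold change was 1.05 in DE2 and -0.06 in WT. Rpl38 had 1.116 (adjusted p = 0.045), with UVB log2 fold changes of 1.24 in DE2 and 0.13 in WT. Rpl3l had -2.438 (adjusted p = 0.0155), with -2.08 in DE2 and 0.36 in WT. Rpl38 lost its call under limma voom (adjusted p = 0.054), without any one of 8 libraries (adjusted p between 0.052 and 0.109) and with either marker covariate, while Rpl7a and Rpl3l lost theirs only with the muscle or the hair follicle covariate among the alternatives run, at interaction values of 0.90 and 0.71 for Rpl7a and -0.59 and -0.57 for Rpl3l. The muscle share was 3.91% in irradiated DE2 and 12.7% in untreated DE2, and 4.74% in irradiated WT and 4.88% in untreated WT. Its part in these 3 results was not tested.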

How the results depend on the processing

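No paired analysis was possible because the labels give the libraries no replicate numbers. Numbers of members past the threshold were, between untreated DE2 and untreated WT, 72 lower with library totals, 18 with no filter, 62 with neither replicate 2 of irradiated WT nor replicate 1 of untreated DE2, and 0 with the muscle or hair follicle covariate; 0 were higher with either covariate or without Rpl3l, an alternative chosen after its values were seen. For UVB in DE2, 73 were higher without that pair of libraries, 0 higher or lower with either covariate, and 0 lower without Rpl3l. For the interaction, 8 were higher with library totals, with DESeq2 and without the pair, 5 with TMM factors made without muscle and keratin genes, 1 with limma voom and 0 with either covariate, and 0 were lower with either covariate or without Rpl3l. Between irradiated genotypes 1 was lower without the pair. Library totals moved the median of all genes by -0.37 between untreated genotypes, 0.26 for UVB in DE2 and 0.38 for the interaction.

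The members' median log2 fold change between untreated genotypes was -0.95 with library totals, -0.11 with the muscle covariate and 0.53 with the hair follicle covariate. For UVB in DE2 it was 0.26 and -0.30 with these covariates, and for the interaction -0.31 with the hair follicle one. The share of counts in irradiated DE2 was 2.86% without muscle and keratin genes in the total. Leaving out 1 library at a time gave 4 to 51 members lower between untreated genotypes, 23 to 67 higher for UVB in DE2, 1 to 19 higher in the interaction and 0 to 1 lower between irradiated genotypes. Against the family level it gave 1 to 4 calls between untreated genotypes, 1 to 4 for UVB in DE2 and 0 to 1 in the interaction.

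For the 35 named members, 3785 of 4339 alternative results kept direction and side of the threshold, 181 lost the call, 95 gained one and 278 changed sign. Of the 278, 247 passed the threshold in neither setting, 58 of them with the hair follicle covariate, 22 with library totals and 21 with the muscle covariate; by comparison 110 were for UVB in WT, 78 between irradiated genotypes, 32 in the interaction, 18 between untreated genotypes and 9 for UVB in DE2. The other 31 changed sign in a called result, all with the hair follicle covariate. The hair follicle share was 0.0176% to 0.0932% in untreated DE2 libraries and at least 1.22% in every other library. A fit with this covariate therefore cannot tell the marker level and the untreated DE2 group apart. Between untreated genotypes these 31 log2 values were 1.32 for Rpl3, 0.94 for Rpl12, 0.85 for Rps10, 0.73 for Rps18, 0.61 for Rpl11, 0.58 for Rpl5, 0.52 for Rps6, 0.48 for Rpl13a, 0.46 for Rps16, 0.45 for Rpl23, 0.20 for Rpl22l1 and Rpl27, 0.12 for Rpl36a and -0.18 for Rpl3l. For UVB in DE2 they were -1.16 for Rpl3, -0.88 for Rpl19, -0.61 for Rpl10, -0.58 for Rpl32, -0.57 for Rps10, -0.56 for Rpl12, -0.55 for Rpl39, -0.51 for Rps18, -0.41 for Rpl5, -0.40 for Rps6, -0.37 for Rpl11, -0.34 for Rpl22l1, -0.31 for Rpl13a, -0.26 for Rps16, -0.25 for Rpl23, -0.13 for Rps3 and 0.014 for Rpl3l. The cause of these changes was not tested. Depth limits the members of lowest counts, such as Rpl39l with 112 counts in all, for which wide changes were not past the threshold.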
